A study of Rattus norvegicus with 15 samples.

Results

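The genes described here are 8 genes listed under B cells and plasma cells, measured by RNA sequencing of rat lung. Whether Fcrl2 belongs with the others is uncertain, as described below. They were taken by name from the 22250 genes of the expression table: Ms4a1, Cd79a, Cd79b, Cr2, Pax5, Fcrl2, Jchain and Mzb1. Each stood on a single line, and all 8 passed the filter on low values. The 15 libraries came from wild-type rats in 3 groups of 5. The SJY group received lipopolysaccharide (LPS, a bacterial surface molecule that provokes inflammation) through the trachea and the herbal formula Sang Ju Yin into the stomach. The ALI group (acute lung injury) received LPS through the trachea and no formula. The control group was normal and received neither. The labels give no strain, age, dose or time after LPS, and name no group given LPS with the vehicle of the formula. Whether a library is 1 animal or a pool is not stated, and p-values here reflect only how these libraries varied.

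B cells recognise antigen through a surface antibody, the B cell receptor, which signals through the paired chains Cd79a and Cd79b. Ms4a1 encodes CD20, a membrane protein of mature B cells, Cr2 encodes complement receptor CR2 (CD21), and Pax5 is the transcription factor that holds B cell identity. Activated B cells can become plasma cells, which shut off much of the B cell programme and secrete antibody. Jchain joins the units of secreted IgM and IgA, and Mzb1 is a chaperone of the endoplasmic reticulum that helps antibody assembly. Fcrl2 is an Fc receptor-like gene. The rat reference lists Fcrls and Msr2 as its synonyms, and in the mouse Fcrls is best known as a gene of microglia and other macrophages.

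Promoters were at hand for 3 of the 8 genes, from RefSeq on the rat build GRCr8, which is not the build of the expression table. They are shown as background, and any link between these sequences and the levels in the libraries was not tested. Each is the 250 bases before the gene's start, 5′ to 3′ on the gene's strand, with capitals for the matches described next. Cd79a lies at chr1:89621210-89621459 on the plus strand, Cr2 at chr13:109244507-109244756 on the minus strand and Jchain at chr14:19822726-19822975 on the plus strand.
Cd79a: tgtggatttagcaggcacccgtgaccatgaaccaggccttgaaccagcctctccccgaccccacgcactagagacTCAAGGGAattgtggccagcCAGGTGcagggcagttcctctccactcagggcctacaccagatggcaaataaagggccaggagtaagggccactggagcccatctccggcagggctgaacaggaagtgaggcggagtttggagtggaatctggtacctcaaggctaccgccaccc
Cr2: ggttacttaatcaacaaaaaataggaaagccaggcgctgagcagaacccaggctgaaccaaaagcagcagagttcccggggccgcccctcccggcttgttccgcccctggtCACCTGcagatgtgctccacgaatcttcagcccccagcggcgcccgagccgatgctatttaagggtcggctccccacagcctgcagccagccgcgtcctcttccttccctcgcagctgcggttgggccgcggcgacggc
Jchain: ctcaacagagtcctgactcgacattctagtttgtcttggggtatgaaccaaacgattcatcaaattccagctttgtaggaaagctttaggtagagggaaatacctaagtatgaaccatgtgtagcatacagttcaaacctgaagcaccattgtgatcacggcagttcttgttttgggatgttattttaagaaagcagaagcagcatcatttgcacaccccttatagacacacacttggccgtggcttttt
Motifs were searched on both strands, counted from the gene's start. The Cd79a promoter held TCAAGGGA at -175 to -168, a match to TCNNGGGA, a core form of the motif of the B cell factor EBF, and CAGGTG, an E-box of the kind E proteins bind, at -155 to -150. The Cr2 promoter held the reverse complement of the same E-box, CACCTG, at -139 to -134. TCNNGGGA was in 15% and CAGGTG in 15.9% of all 33469 promoters of this length, so these letters are common. The octamer ATTTGCAT, known from antibody gene promoters, was in 1.56% of promoters and in none of these 3 windows. The Jchain window held none of the 3 motifs, which did not overlap each other.

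Values are FPKM, sequenced fragments per length of transcript and scaled to the mapped fragments of the library. The deposited values proved to be whole multiples of what 1 fragment is worth, so the fragments behind each value could be recovered. Each library held between 7420000 and 10060000 fragments over its genes (rounded). Mitochondrial genes took 37.7% of the FPKM in library ALI 1, against 5.19% to 17.1% in the other 14. ALI 1 also had the fewest genes at 1 FPKM or more, 11865, against 12305 to 13313 elsewhere. ALI 3 stood apart for lymphocyte genes, as described below, and results are therefore given with and without it. The lung epithelial genes Sftpc, Sftpa1, Sftpb, Ager, Scgb1a1 and Cldn18 (with Cldn5, which was listed at 0 in all 15 libraries) summed to 26380 to 33200 FPKM in SJY, 12940 to 26190 in ALI and 27610 to 39140 in control lungs.

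The B cell genes were at similar low levels in most lungs and far higher in a single ALI lung. Ms4a1 was at 3.75, 7.12, 10.1, 5.38 and 15.4 FPKM in SJY libraries 1, 3, 4, 5 and 6. It was at 6.22, 7.37, 62.5, 7.13 and 7.72 FPKM in ALI libraries 1 to 5, and at 5.02, 3.07, 4.61, 7.23 and 6.91 FPKM in control libraries 4 to 8. The other 4 ALI libraries lay within a narrow band, and only ALI 3 left it, with 1017 fragments against 103 to 123 in the rest of its group. The 3 groups overlapped.

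The receptor chains gave the same picture. Cd79a was at 10.6, 9.16, 14.5, 6.40 and 10.4 FPKM in SJY libraries, at 2.05, 9.87, 53.6, 4.86 and 9.22 FPKM in ALI libraries and at 10.7, 8.63, 7.39, 10.2 and 8.64 FPKM in control libraries. Cd79b was at 9.04, 10.9, 18.6, 10.9 and 13.6 FPKM in SJY, at 5.60, 13.7, 82.8, 5.85 and 13.1 FPKM in ALI and at 8.82, 10.95, 7.01, 13.2 and 10.4 FPKM in control libraries. For both chains ALI 3 was the highest of all 15 libraries, ALI 1 was the lowest, and ALI 4 was the second lowest. The ratio of Cd79b to Cd79a, whose proteins pair, lay between 0.851 and 1.70 in SJY, between 1.20 and 2.73 in ALI and between 0.826 and 1.30 in control lungs. The ALI maximum was that of ALI 1, where Cd79a rested on 28 fragments.

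Cr2, which also marks follicular dendritic cells, was at 0.699, 1.70, 4.18, 2.13 and 6.27 FPKM in SJY, at 1.01, 1.31, 24.3, 1.87 and 2.09 FPKM in ALI and at 1.38, 1.18, 1.06, 2.35 and 1.52 FPKM in control libraries. Pax5 was at 0.850, 3.17, 3.87, 2.44 and 2.65 FPKM in SJY, at 0.379, 1.43, 16.9, 0.910 and 1.27 FPKM in ALI and at 2.06, 0.871, 0.350, 1.07 and 1.53 FPKM in control libraries. Again ALI 3 was the highest library, and the next highest were SJY 6 for Cr2 and SJY 4 for Pax5. Pax5 was thinly covered at its low end, with 6 fragments in ALI 1 (95% Poisson interval 2.2 to 13.1) and 5 in control 6 (1.6 to 11.7). Such intervals cover counting error only.

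**Figure D1:**
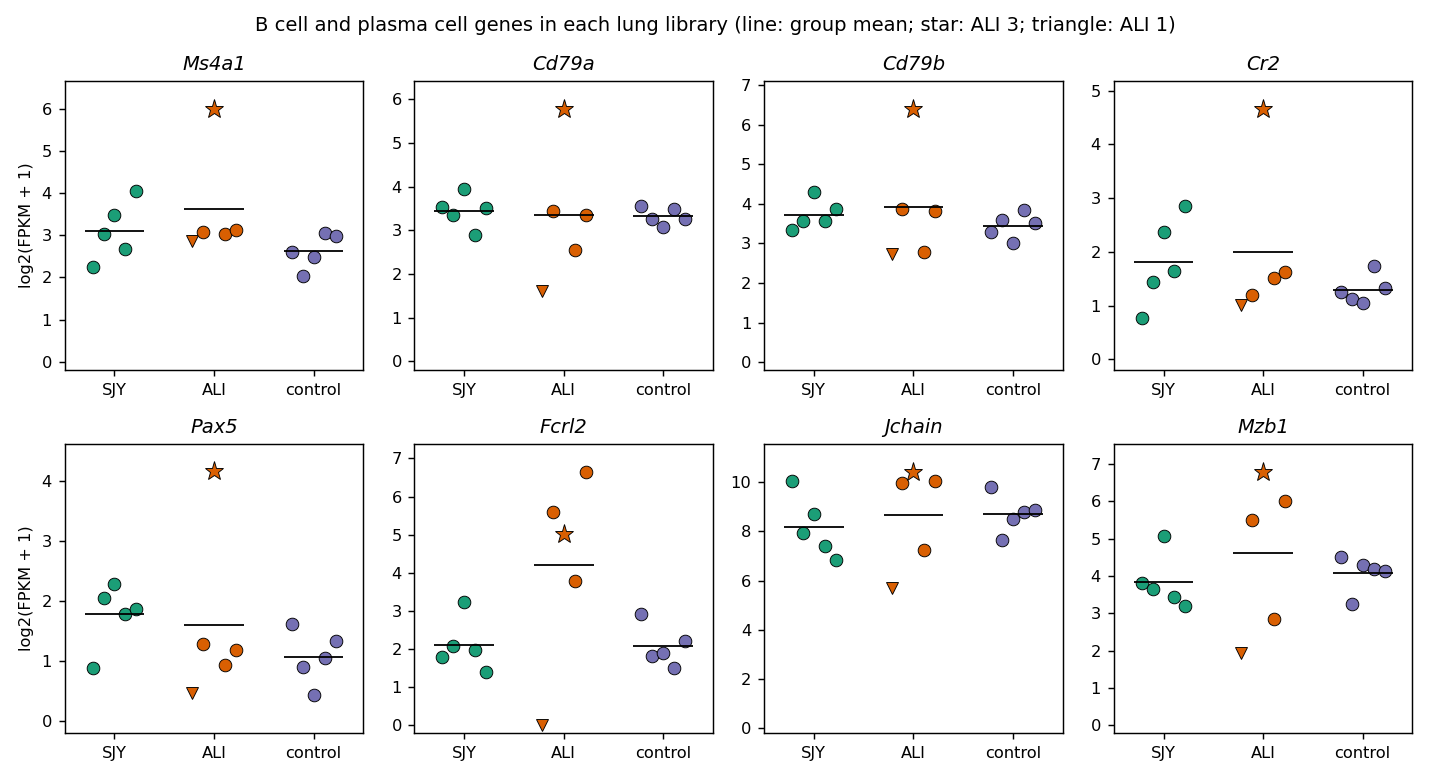
The 8 genes in each library on the log2(FPKM + 1) scale, 1 panel per gene, with SJY, ALI and control libraries as points and each group's mean as a line. The star of ALI 3 is the highest point in every panel except that of Fcrl2, where ALI 5 is highest, and the triangle of ALI 1 is the lowest ALI point in all 8.

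ALI 3 was the highest of the 15 libraries for 7 of the 8 genes, all but Fcrl2. Over all 13457 genes tested it was the highest for 10.7%. Against the median of the other 4 ALI libraries its value was 8.62 times as high for Ms4a1, 7.62 for Cd79a, 8.72 for Cd79b, 15.3 for Cr2 and 15.6 for Pax5. The ratio was smaller for the plasma cell genes, 2.38 for Jchain and 4.32 for Mzb1, and it was 1.05 for Fcrl2, close to the 1.02 of the median gene.

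Other genes of B cells were high in the same library. It was the highest for 14 of 18 genes of B cell receptor signalling, 10 of 14 of B cell surface and homing, 7 of 10 B cell transcription factors and 8 of 10 germinal centre genes, with median ratios of 1.85, 3.28, 1.90 and 1.69. The following genes were chosen after their values were seen. Tnfrsf13c, the receptor for the survival factor BAFF, was at 17.1 FPKM in ALI 3 and at no more than 2.85 FPKM in the other 14 libraries. Fcrl1, an Fc receptor-like gene of B cells, was at 22.9 FPKM in ALI 3 and at no more than 3.90 FPKM elsewhere.

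Some genes of lymphoid stroma and T cells were also high there. The follicle and survival list was highest in ALI 3 for 6 of 12 genes, with a median ratio of 1.79. Its Cxcl12, Tnfsf13b and Ltbr had ratios of 0.74, 0.897 and 0.918, and Cxcl13 was highest in ALI 5. Glycam1, a ligand for lymphocyte homing made by high endothelial venules and also chosen after its values were seen, was at 257 FPKM in ALI 3, and its next highest value was 25.6 FPKM in SJY 4. The T cell list, 15 genes, had a median ratio of 2.78 and its highest library in ALI 3 for 10. Its summed level was 133.6 to 240.0 FPKM in SJY, 94.3 to 355 FPKM in ALI and 205 to 276 FPKM in control lungs, with the ALI maximum in ALI 3. The macrophage list was highest in ALI 3 for 0 of 11 genes, with a median ratio of 0.809. The part of any tissue or cell type in the values of ALI 3 was not tested, and in bulk lung RNA more cells of a type and more RNA per cell cannot be told apart, nor can fewer cells and less RNA per cell.

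**Figure D2:**
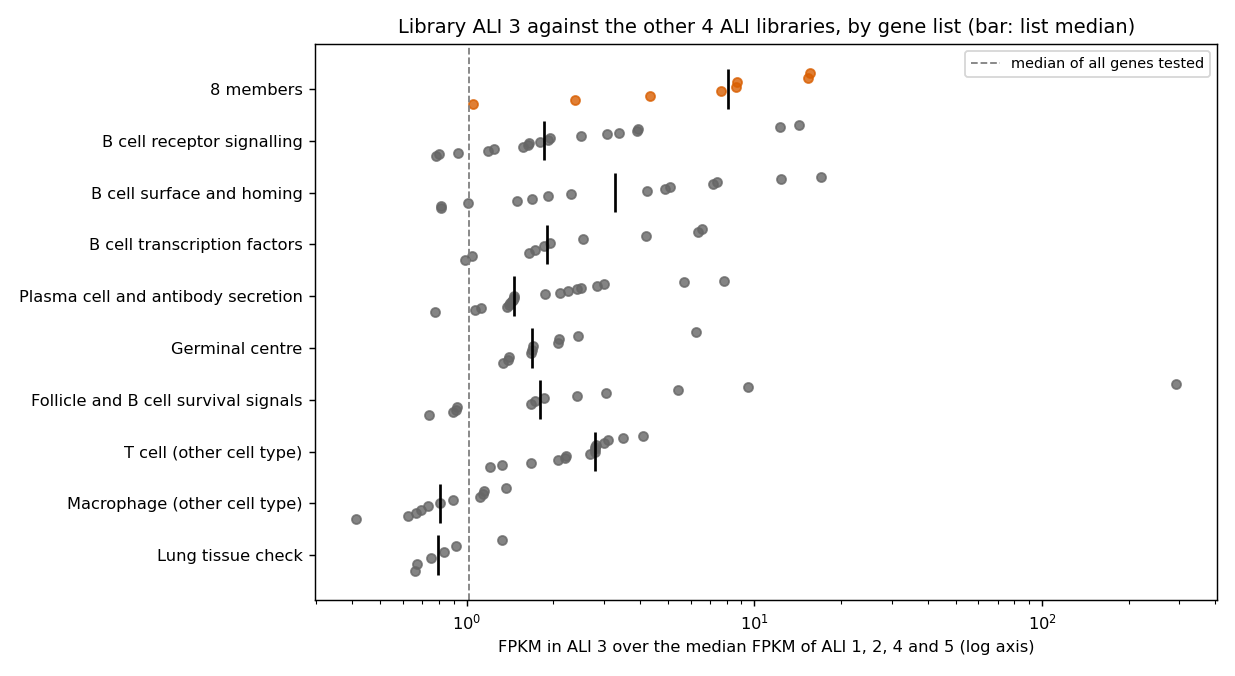
The value of each tested gene in ALI 3 over its median in the other 4 ALI libraries, on a log axis, with a row of points per gene list and a bar at the list's median; the dashed line is the median of all genes tested, 1.02. The 8 genes have a median of 8.12, the T cell list 2.78 and the macrophage list 0.809, and the point farthest right is Glycam1 at 293.

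ALI against control asks what LPS injury did to these genes. None of the 8 passed the test (limma on log2(FPKM + 1), Benjamini-Hochberg adjusted p under 0.05), beside 17.6% of all genes tested (8.02% higher, 9.56% lower). Ms4a1 averaged 18.2 ± 24.8 FPKM in ALI and 5.37 ± 1.72 FPKM in control lungs (SD, n = 5 each), a log2 change of 0.99 (95% interval -0.09 to 2.06, limma adjusted p = 0.175). The other B cell genes had log2 changes of 0.02 for Cd79a, 0.47 for Cd79b, 0.71 for Cr2 and 0.54 for Pax5, with limma adjusted p between 0.379 and 0.981. The median of the 5 was 0.54, beside -0.12 for all genes tested.

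Without ALI 3 the 5 B cell genes had a median log2 change of -0.10, again with none past the test, beside 14.5% of all genes. Ms4a1 then averaged 7.11 ± 0.643 FPKM in the 4 ALI lungs and 5.37 ± 1.72 FPKM in the 5 control lungs, a log2 change of 0.39. The changes of Cd79a, Cd79b and Pax5 turned to -0.59, -0.15 and -0.10, and that of Cr2 was 0.04. The Cd79a difference had an interval of -1.26 to 0.08 and a limma adjusted p of 0.199.

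SJY against ALI asks what the formula did to LPS-injured lungs. None of the 8 passed, beside 0.00743% of all genes tested, which is 1 gene. Ms4a1 averaged 8.35 ± 4.59 FPKM in SJY and 18.2 ± 24.8 FPKM in ALI lungs, a log2 change of -0.52 (interval -1.59 to 0.55, limma adjusted p = 0.737). Those of Cd79a, Cd79b, Cr2 and Pax5 were 0.10, -0.19, -0.19 and 0.17. Without ALI 3 all 5 were positive. Pax5 averaged 2.60 ± 1.12 FPKM in SJY and 0.996 ± 0.464 FPKM in the 4 ALI lungs, a log2 change of 0.81 (interval 0.20 to 1.43) with a limma adjusted p of 0.312. Cd79a averaged 10.2 ± 2.92 FPKM in SJY and 6.50 ± 3.71 FPKM in the 4 ALI lungs, a log2 change of 0.71 with a limma adjusted p of 0.383. The unadjusted p of these 2 genes were 0.0132 and 0.0398, and neither they nor any other of the 13457 genes passed without ALI 3 (0.0%).

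SJY against control sets the treated, LPS-injured lungs beside normal ones. None of the 8 passed, beside 32.6% of all genes tested (14.6% higher, 18.1% lower). The B cell genes had log2 changes of 0.46 for Ms4a1, 0.12 for Cd79a, 0.28 for Cd79b, 0.52 for Cr2 and 0.71 for Pax5, all with intervals that held 0. Pax5 averaged 2.60 ± 1.12 FPKM in SJY and 1.18 ± 0.652 FPKM in control lungs (SD, n = 5 each). Its limma adjusted p was 0.322 with all libraries in the fit and 0.0586 without ALI 3, where again none of the 8 passed, beside 32.3% of all genes. ALI 3 enters this comparison only through the spread that the 3 groups share in the fit.

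**Figure D3:**
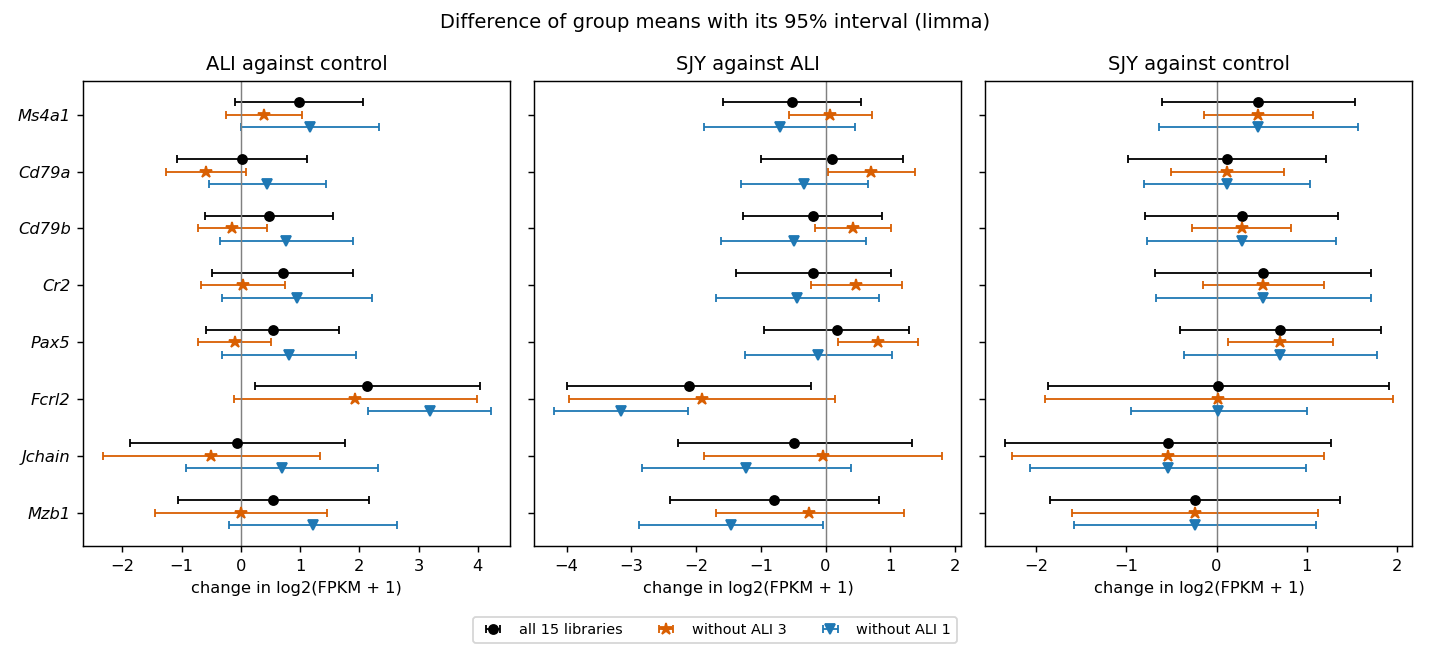
Differences of group means in log2(FPKM + 1) with 95% intervals from limma, for the 8 genes in the 3 comparisons, with all libraries (circles), without ALI 3 (stars) and without ALI 1 (triangles). Leaving out ALI 3 moves the 5 B cell genes downward in ALI against control and upward in SJY against ALI, and leaving out ALI 1 moves the interval of Fcrl2 farther from 0 in both, to 2.15 to 4.22 in ALI against control and -4.20 to -2.13 in SJY against ALI.

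Some other B cell list genes did pass, and several of these, such as Fcgr2b and Btk, are also expressed by myeloid cells. The counts of each list below stand beside shares over all genes of 8.02% higher and 9.56% lower in ALI against control, and of 14.6% higher and 18.1% lower in SJY against control. In ALI against control 5 of 18 receptor signalling genes rose and 0 fell. Fcgr2b, the inhibitory Fc receptor of B cells and macrophages, averaged 46.8 ± 15.2 FPKM in ALI and 9.47 ± 1.38 FPKM in control lungs (log2 change 2.14, limma adjusted p = 1.1e-05), and Btk and Cd72 rose by 0.95 and 1.25. Without ALI 3 the count was 3 of 18, and Cd72 was at 0.89 with a limma adjusted p of 0.1. In SJY against control 7 rose and 0 fell. Fcgr2b rose by 2.23, Cd37, a tetraspanin of leukocytes, by 0.84, and Cd22, an inhibitory co-receptor of B cells, by 1.10 on the log2 scale. Cd22 averaged 12.2 ± 2.81 FPKM in SJY and 5.23 ± 1.62 FPKM in control lungs (limma adjusted p = 0.0184), and the groups did not overlap. Between SJY and ALI 0 of 18 passed: Cd81 and Lyn, the most abundant, had log2 changes of -0.01 and 0.05.

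Among surface and homing genes, 2 of 14 rose in ALI against control and 4 rose and 1 fell in SJY against control. Cd52, a small surface glycoprotein of leukocytes, rose by 1.21 in SJY against control and by 1.14 in ALI against control. Set against ALI, SJY lungs gave Cd24 a log2 change of -0.42, and 0 of the 14 passed. Cxcr5, the receptor that leads B cells to follicles, averaged 3.67 ± 0.635 FPKM in SJY and 1.28 ± 0.443 FPKM in control lungs (log2 change 1.05, limma adjusted p = 0.0256), with every SJY library above every control library. It no longer passed without SJY 4, SJY 6, control 6 or control 7 (limma adjusted p 0.0508 to 0.0582). Cd24 fell by 0.99 in SJY against control.

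The Cxcr5 ligand Cxcl13, which draws B cells into follicles, averaged 263 ± 167 FPKM in SJY, 569 ± 410 FPKM in ALI and 7.33 ± 3.17 FPKM in control lungs. Of the 12 follicle and survival signals tested, 6 rose in ALI against control and 7 in SJY against control, and 0 fell. Cxcl13 rose by 5.63 and 4.79 on the log2 scale, Ccl19, a chemokine of lymphoid stroma, by 3.33 and 2.83, and Il6, which supports plasma cells, by 2.0 and 2.06. Set against ALI, SJY lungs gave Cxcl13 a log2 change of -0.84 and Clu, a complement inhibitor, 0.16, and 0 of the 12 passed.

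Of the 10 transcription factors tested, 2 rose and 1 fell in ALI against control, and 1 rose and 3 fell in SJY against control. Spi1 (PU.1), which myeloid cells also express, averaged 138 ± 12.2 FPKM in SJY, 101 ± 30.2 FPKM in ALI and 44.1 ± 3.05 FPKM in control lungs, and it rose in both comparisons with control. Pou2f2 rose by 0.98 in ALI against control. Foxo1 fell by 0.82 in ALI against control and by 1.68 in SJY against control, where Ikzf3 fell by 1.13 and Bach2, a repressor of the plasma cell programme, by 0.82. Of 10 germinal centre genes, Ung rose by 0.59 in ALI against control and S1pr2 fell by 0.64 in SJY against control. Between SJY and ALI 0 of these 20 genes passed, with changes of 0.50 for Spi1, -0.48 for Irf8, 0.12 for Bcl6 and -0.46 for Icoslg.

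The T cell list had a median log2 change of -0.52 in ALI against control, where Cd28 alone fell, by 0.98. In SJY against control Cd8a rose by 1.01 while Cd28 and Tcf7 fell by 1.30 and 1.08. Of the 4 plasmacytoid dendritic cell genes tested, Cox6a2 rose by 1.71 in ALI and by 1.58 in SJY against control. Irf7 also rose in SJY against control, by 1.87. The other genes, Tcf4 and Runx2, averaged lower in SJY than in control lungs (11.1 against 14.8 and 2.80 against 4.15 FPKM) and did not pass. Without ALI 1, 2 of the 4 rose and 2 fell in SJY against control. Cox6a2 rested on 0 to 8 fragments in control libraries, and Siglech was below the filter. For SJY against ALI 0 of 15 and 0 of 4 passed, with log2 changes of -0.75 for Cd4, -0.34 for Tcf7, 1.0 for Irf7 and -0.27 for Tcf4. Of the 6 lung epithelial genes tested, 4 fell in ALI against control, 2 in SJY against control and 0 in SJY against ALI. The part of these cells in the B cell values was not tested.

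Several of the calls in these lists were lost, and some were gained, when libraries were left out. Without ALI 3, ALI against control gave 1 rise and 1 fall among the transcription factors and 0 calls among germinal centre genes. There were 4 rises among follicle signals and 2 falls among lung epithelial genes. The T cell list gained calls, with 4 falls beside 1 with all libraries. In this fit 906 of all 13457 genes rose and 1045 fell. Pou2f2 was then at 0.83, Ung at 0.45, Il6 at 1.91 and Foxo1 at -0.84, with limma adjusted p between 0.0595 and 0.103. Each of the 15 libraries was also left out in turn. Of the genes named, the call in ALI against control ended in 12 of these fits for Ung, 11 for Cd72, 9 for Foxo1, 5 for Il6, 4 each for Cd28 and Sftpb and 2 each for Pou2f2 and Creld2 (limma adjusted p up to 0.103). In SJY against control it ended in 11 each for Pigr and Prdm1, 8 for Tcf7, 7 for Sftpb, 5 each for Ikzf3 and Cd38, 4 each for Cxcr5 and Cd24 and 1 for S1pr2 (limma adjusted p up to 0.124). In SJY against ALI, 12 of the 135 matched list genes, not all of them tested, passed without ALI 1 and 0 with it. They went in both directions, with 1 macrophage gene higher and 2 lower among them. Without ALI 1, 181 of all 13457 genes passed in this comparison, 119 higher and 62 lower.

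Plasma cell genes varied widely inside every group. Jchain was at 1046, 241, 422, 171 and 114 FPKM in SJY libraries 1, 3, 4, 5 and 6, at 50.2, 993, 1361, 152 and 1049 FPKM in ALI libraries 1 to 5, and at 906, 202, 358, 439.5 and 472 FPKM in control libraries 4 to 8. ALI 2, 3 and 5, SJY 1 and control 4 were the high libraries, and ALI 1 was the lowest of all. These levels rested on 324 to 8633 fragments, so that counting error was small beside the spread. Mzb1 was at 13.0, 11.5, 32.6, 9.75 and 8.21 FPKM in SJY, at 2.82, 44.5, 109.5, 6.19 and 63.8 FPKM in ALI and at 21.7, 8.54, 18.5, 17.2 and 16.5 FPKM in control libraries. Its high ALI libraries were the same 3, and ALI 1 and ALI 4 were the lowest of all 15. SJY 1, at the top of its group for Jchain, was not so for Mzb1, and the ratio of Jchain to Mzb1 reached 80.4 there, against 12.4 to 41.8 in the ALI and control libraries.

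Jchain averaged 721 ± 584 FPKM in ALI and 475 ± 262 FPKM in control lungs (SD, n = 5 each), a log2 change of -0.06 with an interval of -1.87 to 1.75 (limma adjusted p = 0.964). The mean in FPKM was higher in ALI while the mean on the log2 scale was slightly lower. Mzb1 averaged 45.4 ± 44.2 FPKM in ALI and 16.5 ± 4.86 FPKM in control lungs, a log2 change of 0.55 (limma adjusted p = 0.624). In SJY against ALI the changes were -0.48 for Jchain and -0.79 for Mzb1, and in SJY against control -0.54 and -0.24, with limma adjusted p between 0.657 and 0.878. Without ALI 3 the changes of Jchain and Mzb1 were -0.50 and 0.01 in ALI against control and -0.04 and -0.25 in SJY against ALI. Without ALI 1 they were 0.69 and 1.22 in ALI against control and -1.23 and -1.46 in SJY against ALI, with limma adjusted p between 0.223 and 0.562.

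Some antibody genes shared the high ALI libraries of Jchain, and Ighg1 shared only ALI 3. Igh-6, an immunoglobulin heavy chain row, was at 9508, 2365, 2050.3, 1058 and 323 FPKM in SJY, at 83.4, 15141, 8709.7, 399 and 6618 FPKM in ALI and at 7194, 571, 851, 1639.7 and 1615 FPKM in control libraries. Ighm, a second row of the IgM heavy chain by its name, ranged over 39.5 to 96.5 FPKM in SJY, 18.7 to 299.5 FPKM in ALI and 55.1 to 144 FPKM in control libraries. The highest ALI library was ALI 2 for Igh-6 and ALI 3 for Ighm and Jchain. The next 2 rows were chosen after their values were seen. Ighg1, an IgG heavy chain row, was at 0.0778 FPKM in ALI 2, 4.09 FPKM in ALI 3 and 0.506 FPKM in ALI 5. These values rested on 1, 53 and 6 fragments, and its highest library was control 6 at 5.87 FPKM. Ighv1-58 was at 148, 132 and 113 FPKM in ALI 2, 3 and 5 and at 2.38 and 5.88 FPKM in ALI 1 and 4. Immunoglobulin segments share sequence, and how the counting split their reads is not given in the sources used here, so these levels are uncertain. Neither Igh-6 nor Ighm passed in any comparison, and Igh-6 had a log2 change of 0.33 in ALI against control (limma adjusted p = 0.874).

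**Figure D4:**
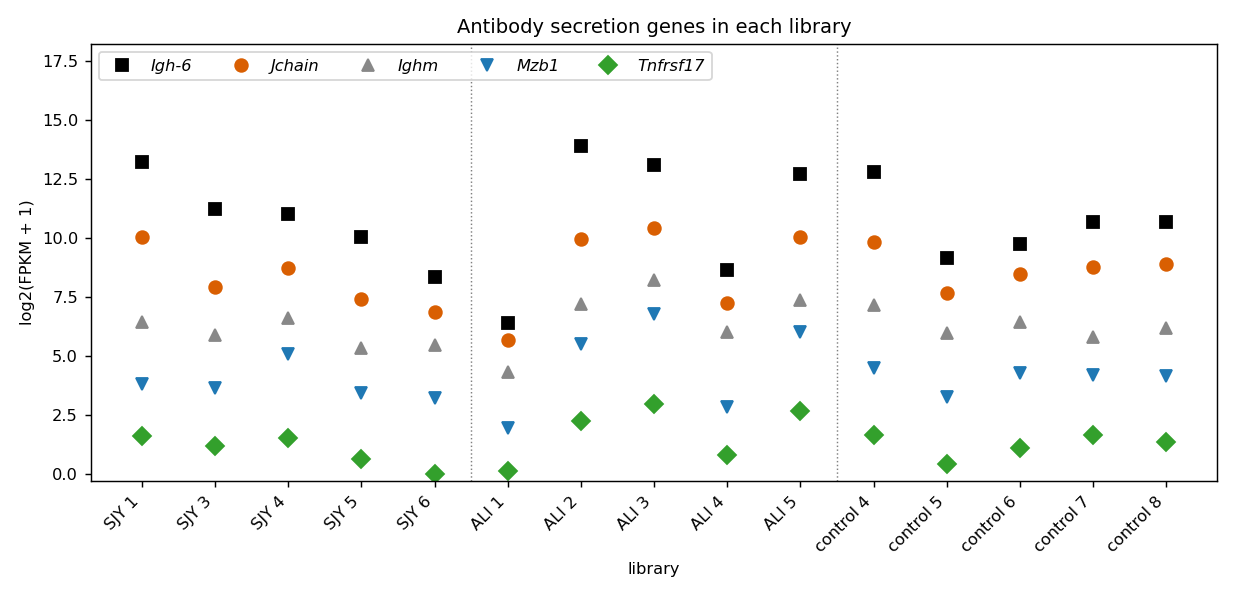
Jchain, Mzb1, the immunoglobulin rows Igh-6 and Ighm, and the plasma cell receptor gene Tnfrsf17 in each library, on the log2(FPKM + 1) scale. All 5 genes are higher in ALI 2, 3 and 5 than in ALI 1 and 4, and ALI 1 is the lowest library for Jchain, Mzb1, Igh-6 and Ighm, at 50.2 FPKM for Jchain.

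Of 19 other genes of plasma cells and antibody secretion, 4 rose and 1 fell in ALI against control, and 4 rose and 3 fell in SJY against control. Over all genes the shares were those given above, and the counts for SJY, 4 and 3 of 19, lie near them. Ssr4, a general gene of the secretory pathway, averaged 152 ± 12.8 FPKM in SJY, 137 ± 29.5 FPKM in ALI and 76.9 ± 14.2 FPKM in control lungs. Sec11c rose by 0.91 in ALI and 0.85 in SJY against control, Creld2 by 0.81 in ALI, and Cd38 by 0.49 in SJY. Sdc1, a plasma cell marker that lung epithelium also expresses, fell by 0.62 in ALI and 0.95 in SJY against control, and Pigr, the epithelial carrier of secreted IgA and IgM, fell by 0.73 and Prdm1, the master factor of plasma cells, by 0.58 in SJY against control. Neither Pigr nor Prdm1 passed with median-of-ratios scaling (limma adjusted p 0.0528 and 0.0585), and each lost its call in 11 of the 15 fits that left out 1 library. Between SJY and ALI 0 of 19 passed. Hsp90b1 had a log2 change of -0.18, and Pigr, lower in every SJY library than in every ALI library, had -0.85 with a limma adjusted p of 0.253.

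Fcrl2 was high in 4 of the 5 ALI lungs and low in SJY and control lungs. It was at 2.46, 3.25, 8.34, 2.94 and 1.65 FPKM in SJY libraries, at 0, 47.2, 31.4, 12.7 and 99.3 FPKM in ALI libraries 1 to 5 and at 6.55, 2.52, 2.74, 1.85 and 3.64 FPKM in control libraries. ALI 2 to 5 were all above every SJY and every control library, and ALI 1 was below them all. ALI 1 had 0 fragments, which allows up to 0.146 FPKM at 3 fragments, while the other 14 libraries had 34 to 1837. It was 1 of 12 genes at 0 in ALI 1 and at 1 FPKM or more in all other libraries. The same count was 1 for SJY 5 and 0 for each of the other 13 libraries.

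Fcrl2 averaged 38.1 ± 38.6 FPKM in ALI and 3.46 ± 1.84 FPKM in control lungs (SD, n = 5 each), a log2 change of 2.13 with an SE of 0.89 (limma unadjusted p = 0.0297, adjusted p = 0.105). SJY lungs averaged 3.73 ± 2.65 FPKM, a log2 change of -2.11 against ALI (limma unadjusted p = 0.0313, adjusted p = 0.378) and 0.02 against control (interval -1.87 to 1.92). Without ALI 1 it passed in both comparisons that use ALI. It then averaged 47.7 ± 37.2 FPKM in the 4 ALI lungs, a log2 change of 3.19 against control (limma adjusted p = 0.000478) and -3.16 for SJY against ALI (limma adjusted p = 0.0115). The groups did not overlap in either, beside 8.83% of all genes higher in this way in ALI against control and 4.21% lower in SJY against ALI. Without ALI 1, 9.10% of all genes were called higher in ALI against control and 0.461% lower in SJY against ALI. Without ALI 3 the changes were 1.93 and -1.91, with limma adjusted p of 0.172 and 0.436.

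Some macrophage genes, though not all, were high in the same ALI libraries. Of the 11 on the list, 7 were highest within ALI in ALI 5 and 8 were lowest in ALI 1, while Cd163 and Marco were highest in ALI 1. Being lowest in ALI 1 was not particular to Fcrl2 and macrophage genes. ALI 1 was the lowest ALI library for every member and for the summed T cell, germinal centre and lung epithelial lists. It was not the lowest for the surface, transcription factor and plasmacytoid lists. C1qa, a complement gene of tissue macrophages, was at 61.8, 74.8, 118, 80.0 and 78.4 FPKM in SJY, at 28.5, 203, 168, 91.0 and 214 FPKM in ALI and at 50.1, 32.5, 39.2, 30.7 and 48.6 FPKM in control libraries. Like Fcrl2 it was highest in ALI 5, then in ALI 2 and ALI 3, and lowest in ALI 1. Unlike Fcrl2, it was higher in every SJY library than in every control library, and so was Adgre1, at 15.4 to 24.9 FPKM in SJY, 5.80 to 62.3 FPKM in ALI and 2.19 to 6.42 FPKM in control lungs. The 11 macrophage genes summed to 597 to 880.0 FPKM in SJY, 366 to 1278 FPKM in ALI and 420.4 to 550.2 FPKM in control lungs. Of them 7 rose and 1 fell in ALI against control, and 5 rose and 1 fell in SJY against control. Folr2 rose by 2.65 and 2.91 and C1qc by 1.63 in ALI, while Lyve1 fell by 0.97 in ALI against control. Over all genes 8.02% rose and 9.56% fell in ALI against control and 14.6% and 18.1% in SJY against control. Mrc1 averaged 49.9 ± 14.1 FPKM in SJY, 64.3 ± 20.2 FPKM in ALI and 66.1 ± 15.2 FPKM in control lungs. For SJY against ALI 0 of 11 passed, with log2 changes of 0.10 for Cd68 and -0.44 for C1qc. The part of macrophages in the Fcrl2 values was not tested.

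**Figure D5:**
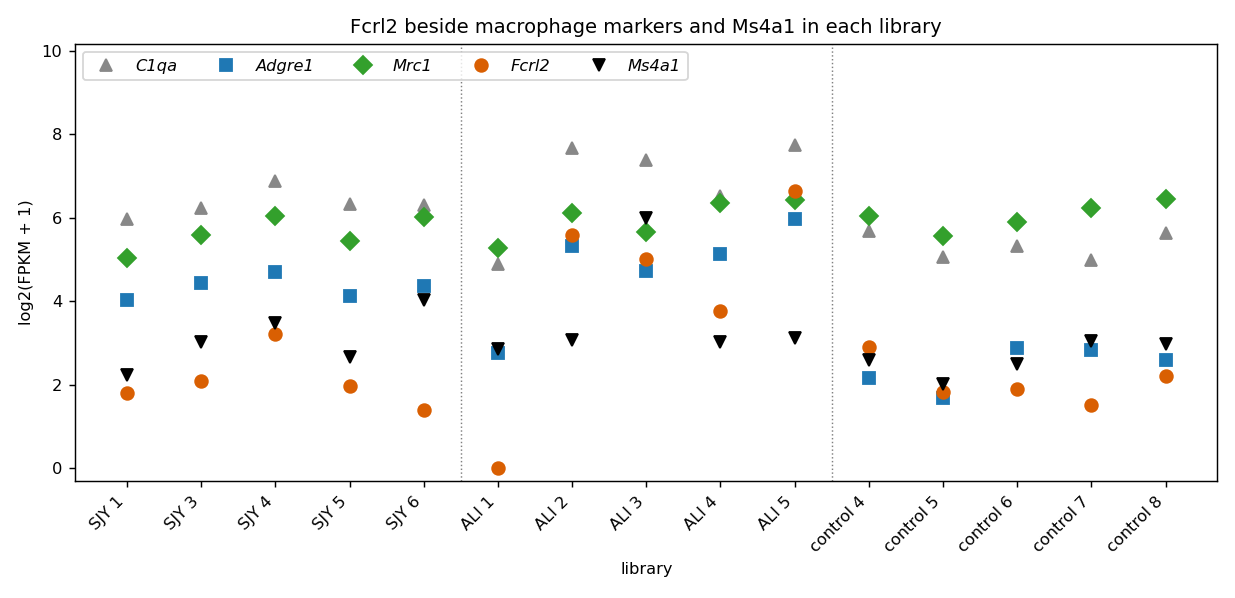
Fcrl2 with the macrophage markers C1qa, Adgre1 and Mrc1 and with the B cell gene Ms4a1 in each library, on the log2(FPKM + 1) scale. Fcrl2 is at 12.7 to 99.3 FPKM in ALI 2 to 5, at 0 in ALI 1 and at 8.34 FPKM or less in SJY and control libraries, while Ms4a1 stands out in ALI 3 only.

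The way the genes varied together across libraries rested in part on ALI 3. Pearson correlations of log2(FPKM + 1) among the 5 were 0.72 to 0.96 over 15 libraries and 0.18 to 0.86 over the 14 without ALI 3. Those of Fcrl2 with the 5 were 0.32 to 0.48 over 15 and 0.06 to 0.36 over 14 libraries. Fcrl2 varied more closely with the plasma cell genes. Its correlations were 0.81 with Mzb1, 0.68 with Jchain and 0.67 with Igh-6 over 15 libraries. Over the 14 they were 0.79, 0.63 and 0.64. Those of Jchain or Mzb1 with the 5 were 0.20 to 0.80 over 15 and -0.23 to 0.70 over 14. All points share the library, its depth and its tissue make-up, and these values are descriptions.

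The genes most like each pattern were ranked by Spearman correlation over the 14 libraries without ALI 3. For the mean of the 5 B cell genes they included Mgst2, Tmco6, Vrk3 and Rad50, at 0.91 to 0.92. In ALI 3 Mgst2 reached 57.0 FPKM, while the remaining ALI libraries ranged over 32.3 to 52.5 FPKM. For the mean of Jchain and Mzb1 they were AABR07034739.1, LOC690813, Tnfrsf17, AABR07034739.3 and AABR07060872.1, at 0.91 to 0.97. Tnfrsf17 encodes BCMA, a survival receptor of plasma cells, and was at 6.66 FPKM in ALI 3 and 0.077 FPKM, 1 fragment, in ALI 1. For Fcrl2 they were Avpr1a, Slc9a9, Clec9a, Cftr and Cd74, at 0.84 to 0.90. Clec9a marks cross-presenting dendritic cells and Cd74 is the MHC class II invariant chain.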

How the data were processed

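Per the labels' protocols, 1 µg of TRIzol-extracted RNA entered each NEBNext Ultra library. Tools named by the submitters' processing notes are HISAT2, StringTie and cutadapt, with the build Rnor_6.0. Versions, strand setting and scaling between libraries are not given in the sources used here. The values are FPKM as deposited by the authors, per the file headers, 1 column per library.

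For 98.4% of the 16887 genes above 0 in at least 5 libraries the values were whole multiples of 1 fragment (tolerance 0.02), which gave fragments, exact 95% Poisson intervals and a floor of 3 fragments. The 13457 genes that reached 1 FPKM in 5 or more of the 15 libraries were tested as log2(FPKM + 1) with limma 3.58.1 in R 4.3.3 (trend, robust, all 3 groups in 1 fit, two-sided), with Benjamini-Hochberg adjustment over all of them at 0.05. Folds on this scale understate low genes. Means and SDs are of FPKM.

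The members, the 11 related lists and the tests were chosen with earlier results of these data known. For each list, up to 3 called genes per direction, or up to 2 of the highest mean, are named. Of 138 list genes 135 were matched by name or RefSeq synonym, and the other 3, among them Pecam1 and Foxj1, were not analysed here. Results of some list genes are not reported here. Alternatives left out libraries, fitted 2 groups alone, added array weights or a replicate block, rescaled by median of ratios, dropped limma's trend and robust options, set the pseudocount to 0.1, or changed the filter.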

Additional observations from a re-analysis of the deposited data

Results flagged for a closer look

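Dixon's test at the 95% level was run on FPKM in 24 sets of 5 libraries (8 genes in 3 groups). In 7 of them a library lay far from the other 4. The nominal rate of 1 in 20 sets holds for normally distributed values, which FPKM need not be. ALI 3 was known to stand apart beforehand, so the number of flags is a description and no test against chance. The sets are not independent, since the genes share libraries. Of the 7, 5 were ALI 3: Ms4a1 at 62.5 FPKM with the other ALI libraries at 6.22 to 7.72, Cd79a at 53.6 (others 2.05 to 9.87), Cd79b at 82.8 (5.60 to 13.7), Cr2 at 24.3 (1.01 to 2.09) and Pax5 at 16.9 (0.379 to 1.43). The other 2 were SJY 4, with Fcrl2 at 8.34 FPKM and the other SJY libraries at 1.65 to 3.25, and Mzb1 at 32.6 (8.21 to 13.0). SJY 4 also held the second highest Glycam1 value of all libraries, 25.6 FPKM.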

How the results depend on the processing

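With all libraries 0 of the 8 genes passed in any comparison. The 11 lists gave 36 calls in ALI against control, 0 in SJY against ALI and 44 in SJY against control. All genes called were 2366 for the first of these comparisons, 1 for the second and 4390 for the third (4714, 1587 and 5862 at an unadjusted p under 0.05). Array weights gave 1 member in each comparison, and so did leaving out ALI 1 and ALI 3 together. In ALI against control and SJY against ALI it was Fcrl2, with log2 changes of 3.40 and -3.11 under array weights (limma adjusted p 0.000572 and 0.0139) and 3.27 and -3.24 without both libraries (0.00193 and 0.0273). In SJY against control it was Pax5, with 1.01 and 0.71 (0.0181 and 0.035), and 1 member, Pax5 again, also with only these 2 groups in the fit (limma adjusted p 0.0495). Of all 13457 genes, 7654, 6096 and 5853 passed in these fits of SJY against control. In the fits where Fcrl2 passed, the counts were 3959 and 1571 in ALI against control and 478 and 156 in SJY against ALI. Leaving out single libraries gave 0 to 1 members in ALI against control and in SJY against ALI and 0 to 0 in SJY against control, and 1556 to 2897, 0 to 181 and 3359 to 5956 genes in all.

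All genes called in ALI against control were 1332 with 2 groups in the fit, 3959 with array weights and 1571 without ALI 1 and ALI 3. In SJY against ALI they were 0 with median-of-ratios scaling, with no trend or robust option, at a pseudocount of 0.1, with no filter and with 2 groups, 478 with array weights and 156 without ALI 1 and ALI 3. In SJY against control they were 7654 with array weights. Median-of-ratios scaling moved the median log2 change of all genes to 0 in ALI against control and in SJY against control, from -0.12 and -0.11. Causes of these shifts were not tested.

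The replicate block gave 313, 1 and 1142 calls. Libraries with the same number did not deviate together (correlations of -0.39 to 0.30 over 9 pairs), so the numbers were not taken as pairs. The Cd79a change in ALI against control was -0.14 and the Jchain change in SJY against ALI 0.06 under the block.

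Signs turned for several genes. In ALI against control Cd79a was -0.05 with a pseudocount of 0.1 and -0.21 without ALI 1 and ALI 3, and Jchain 0.08 with median-of-ratios scaling, 0.62 with array weights and 0.36 without ALI 1 and ALI 3. In SJY against ALI without both, Ms4a1 was 0.02, Cd79b 0.23 and Cr2 0.36, and with array weights Cd79a was -0.09 and Cr2 0.06. With single libraries left out, ALI against control ran over -0.59 to 0.45 for Cd79a, -0.15 to 0.77 for Cd79b, -0.10 to 0.82 for Pax5 and -0.50 to 0.69 for Jchain. SJY against ALI ran over -0.76 to 0.07 for Ms4a1, -0.33 to 0.71 for Cd79a, -0.49 to 0.42 for Cd79b, -0.45 to 0.47 for Cr2 and -0.11 to 0.81 for Pax5. SJY against control ran over -0.01 to 0.26 for Cd79a and -0.26 to 0.24 for Fcrl2. Pax5 rested on 5 to 6 fragments in its lowest libraries and Fcrl2 on 0 in ALI 1.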
